A study of Mus musculus with 12 samples.

Results

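The 10 genes described here are genes of mature fat cells, Adipoq, Lep, Plin1, Plin4, Fabp4, Pparg, Cidec, Lpl, Cfd and Adrb3, measured in mouse skin wounds treated with capsaicin (CAP), the pungent compound of chili peppers, or with its carrier gel alone. They were chosen by name, with earlier results of these data known, and all 10 were found among the 55487 genes of each deposited expression table. The wounds were full-thickness biopsy wounds on the backs of male C57BL/6JNarl mice aged 6 weeks, and the harvested piece held the wound with surrounding skin. In the sham group, wounds received 200 µL of the gel Pluronic F127 (P-F127, 25% in saline) once daily, and in the CAP group they received the same gel and volume carrying 10 µM CAP. RNA was sequenced from 3 libraries of each group on day 3 and on day 6, so all 12 libraries come from wounded, gel-treated skin and no unwounded skin was analysed here. Each mouse carried 2 wounds and the sources used here do not say which libraries share a mouse, so the p-values below measure only the spread between libraries, which may in part be technical.

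A fat cell stores triglyceride in 1 large lipid droplet, takes up fatty acids from the blood, releases them when adrenergic signals call for fuel, and secretes hormones and other proteins. White fat cells of the skin form a layer beneath the dermis and around hair follicles, and this layer is known to shrink and to regrow around wounds. Among the secreted products, Adipoq encodes adiponectin, Lep encodes leptin, the hormone that reports fat stores to the brain, and Cfd encodes complement factor D, also called adipsin. Plin1, Plin4 and Cidec encode proteins of the lipid droplet surface. Lpl encodes lipoprotein lipase, which frees fatty acids from blood lipoproteins, and Fabp4 encodes the fatty acid binding protein that carries them inside the cell. Pparg encodes the nuclear receptor that drives fat cell formation, and Adrb3 encodes the β3-adrenergic receptor that starts lipolysis. Fabp4 is also known from endothelial cells and macrophages, and Lpl and Pparg from macrophages, whereas Adipoq, Plin1 and Cidec are closer to fat cells alone.

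The genes lie on different parts of the genome (GRCm38). Adipoq lies at chr16:23146536-23158028 on the plus strand, Lep at chr6:29060220-29073877 on the plus strand, Plin1 at chr7:79720218-79732903 on the minus strand and Cidec at chr6:113424634-113435760 on the minus strand, and each is annotated as protein coding. The 250 bases before the start site of these 4 genes are shown because Adipoq, Plin1 and Cidec moved together from library to library while Lep did not follow them fully. The sequences are from RefSeq (GRCm38.p6) and are written 5′ to 3′ on the strand of the gene, with capitals for matches to a searched motif.
Adipoq, chr16:23146286-23146535, plus strand: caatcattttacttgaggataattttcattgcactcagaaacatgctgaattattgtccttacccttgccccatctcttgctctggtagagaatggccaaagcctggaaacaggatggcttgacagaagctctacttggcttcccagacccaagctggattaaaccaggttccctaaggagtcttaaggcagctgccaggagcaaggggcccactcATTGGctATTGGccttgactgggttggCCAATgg
Lep, chr6:29059971-29060220, plus strand: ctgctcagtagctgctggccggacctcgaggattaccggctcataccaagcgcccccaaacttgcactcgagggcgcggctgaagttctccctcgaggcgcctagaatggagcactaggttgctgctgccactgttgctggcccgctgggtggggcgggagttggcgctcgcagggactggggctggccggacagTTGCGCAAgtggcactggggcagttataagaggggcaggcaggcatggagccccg
Plin1, chr7:79732777-79733026, minus strand: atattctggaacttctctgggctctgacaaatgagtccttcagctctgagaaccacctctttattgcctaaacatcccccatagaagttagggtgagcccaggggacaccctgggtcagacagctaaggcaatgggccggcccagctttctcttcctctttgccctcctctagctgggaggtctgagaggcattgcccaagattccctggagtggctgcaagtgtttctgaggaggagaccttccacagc
Cidec, chr6:113435761-113436010, minus strand: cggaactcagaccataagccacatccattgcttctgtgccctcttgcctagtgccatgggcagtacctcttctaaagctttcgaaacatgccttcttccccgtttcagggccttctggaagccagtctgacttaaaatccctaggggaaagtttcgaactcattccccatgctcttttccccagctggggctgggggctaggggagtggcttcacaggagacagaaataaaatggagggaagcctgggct

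The motifs were searched on both strands from 250 bases before to 50 bases after the start site, in 10 windows that RefSeq gives for 7 of the 10 genes, with no window for Fabp4, Lpl and Adrb3. Lep held the palindrome TTGCGCAA, the consensus of C/EBP factors, 55 bases before its start site, and 0.183% of all 32817 windows of this length held it. Adipoq held CCAAT at 3 places, 7 bases before the start site on the gene strand and at 27 and 34 bases on the other strand. CCAAT was held by 4 of the 10 windows, from Adipoq, Plin4 and Pparg, and by 37.4% of all windows. Neither Plin1 nor either Cidec window held any searched motif. The other motifs were TATAAA (13.6% of all windows), AGGTCA, the half-site of nuclear receptors (16.3%), and AGGTCANAGGTCA, the pair of half-sites that PPARγ can bind (0.0396%), which contains AGGTCA. Of these, Pparg windows held TATAAA once and AGGTCA in 2 windows, and none of the 10 windows held the pair. A match describes letters and is not evidence of binding.

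All 10 genes were expressed in every library. Values are in TPM, the share of all transcripts scaled for gene length, so levels can be compared between genes. By the mean of the 12 libraries, Cfd (255.6 TPM) and Fabp4 (249 TPM) were the highest, followed by Lpl (96.5 TPM), Cidec (40.5 TPM), Adipoq (27.0 TPM), Plin1 (22.5 TPM), Plin4 (16.8 TPM), Pparg (13.0 TPM), Adrb3 (4.77 TPM) and Lep (1.90 TPM). Each neighbouring pair in this order overlapped in range across libraries. Ucp1, the heat-producing protein of brown fat, stood between the placeholder for 0 (1e-04 TPM) and 0.149 TPM, while Retn, which encodes the fat cell product resistin, stood between 6.05 and 22.2 TPM. Markers of white fat were therefore present, and Ucp1 was at or near 0. Other genes listed for thermogenic (heat-producing) fat were expressed. Cox8b stood at 7.19 to 22.6 TPM, Cpt1b at 7.29 to 17.8 TPM and Cidea at 1.66 to 11.5 TPM. Dio2 stood at 2.1 to 7.07 TPM and Prdm16 at 1.58 to 3.27 TPM. Elovl3 (0.0721 to 1.80 TPM) and Ppargc1a (0.403 to 1.02 TPM) were lower. The cell types behind these levels were not tested.

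The fat cell genes varied widely among libraries of the same group. On day 3 Adipoq was measured at 15.3, 31 and 26.4 TPM in sham wounds and at 12.5, 34.7 and 35.4 TPM in CAP wounds. On day 6 it was measured at 18.9, 11.3 and 30.3 TPM in sham wounds and at 49.4, 27.7 and 30.7 TPM in CAP wounds. In both day 3 groups replicate 1 lay well below the other two, the day 6 sham libraries were spread apart, and in the day 6 CAP group replicate 1 lay above the other two. The SD of Adipoq on the log2 scale was 0.651 over all 12 libraries and 0.653 within groups, so grouping the libraries by treatment and day did not narrow its spread.

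Plin1, which coats the droplet and controls access of lipases, closely followed Adipoq. Its levels were 12.6, 24.8 and 21.4 TPM in day 3 sham wounds, 10.2, 27.7 and 27.7 TPM in day 3 CAP wounds, 17.2, 8.39 and 24.0 TPM in day 6 sham wounds and 47.4, 21.8 and 27.1 TPM in day 6 CAP wounds. Cidec, which fuses small droplets into large ones, stood at 25.6, 42.7 and 42.1 TPM, at 19.8, 48.4 and 51.0 TPM, at 31.7, 18.7 and 46.5 TPM and at 74.1, 40.7 and 44.3 TPM in the groups in that order. In each gene the day 6 sham replicate 2 was the lowest of the 12 libraries and the day 6 CAP replicate 1 was the highest.

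The same few libraries stood apart for most of the 10 genes. Replicate 1 of the day 3 sham group was among the 3 lowest libraries for 10 of 10 genes, and replicate 1 of the day 3 CAP group and replicate 2 of the day 6 sham group were so for 8 genes each. Replicate 1 of the day 6 CAP group was the highest library for 6 genes and among the 3 highest for 8, and replicate 3 of the day 3 CAP group was among the 3 highest for 8. The genes that changed least among libraries were Plin4, from 12.5 to 23.9 TPM, and Adrb3, from 3.05 to 7.89 TPM. In RNA from whole wounds, fewer fat cells in a piece of tissue and less RNA per fat cell cannot be told apart.

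**Figure D1:**
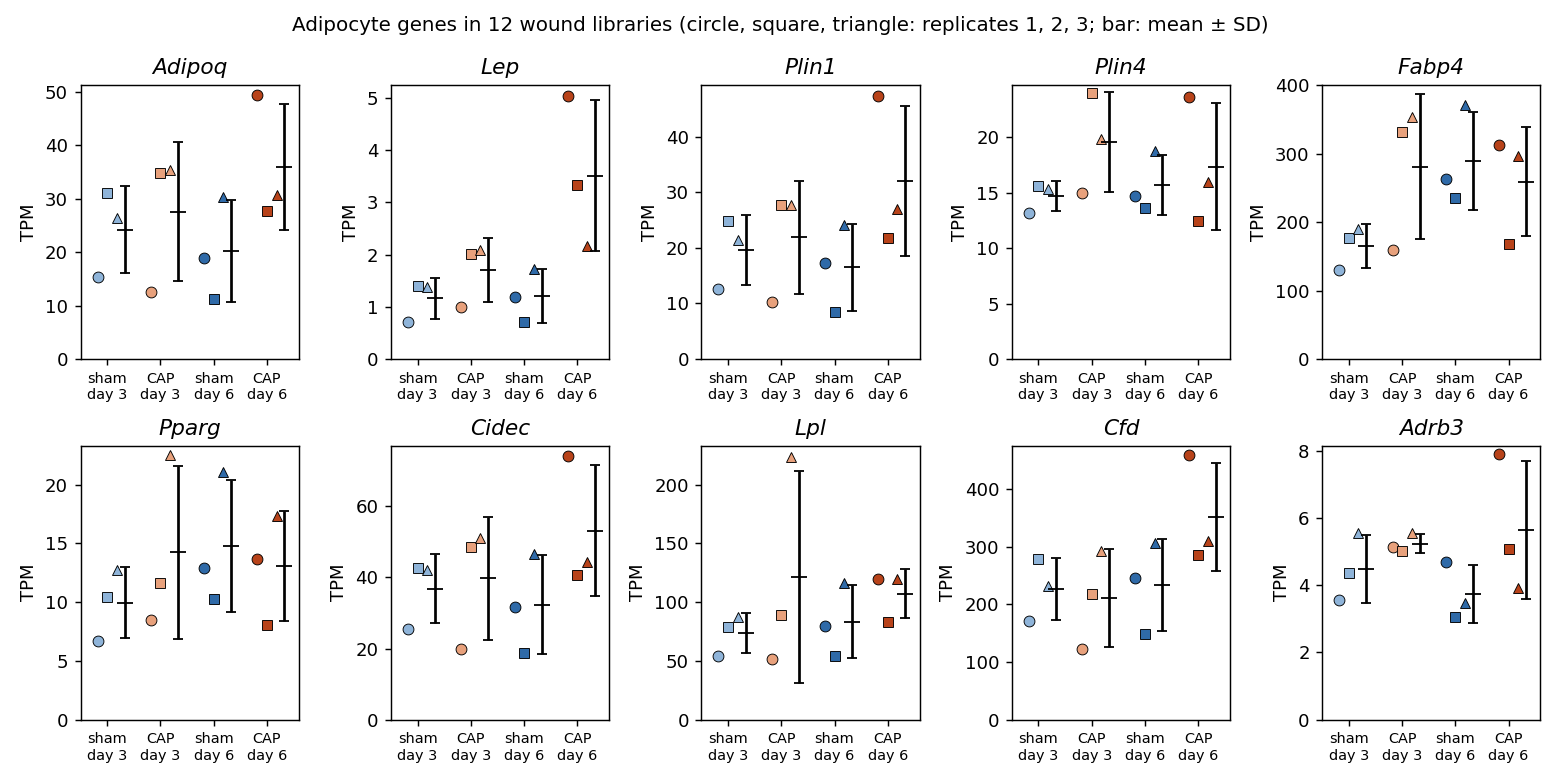
The level of each of the 10 genes in TPM (vertical axis, starting at 0) is plotted for the 3 libraries of each group (circle, square and triangle for replicates 1, 2 and 3), with bars for the mean ± SD (n = 3). For Adipoq, Plin1 and Cidec the libraries of the same group spread widely, whereas the Lep levels of the day 6 CAP wounds all lie above those of the day 6 sham wounds.

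**Figure D2:**
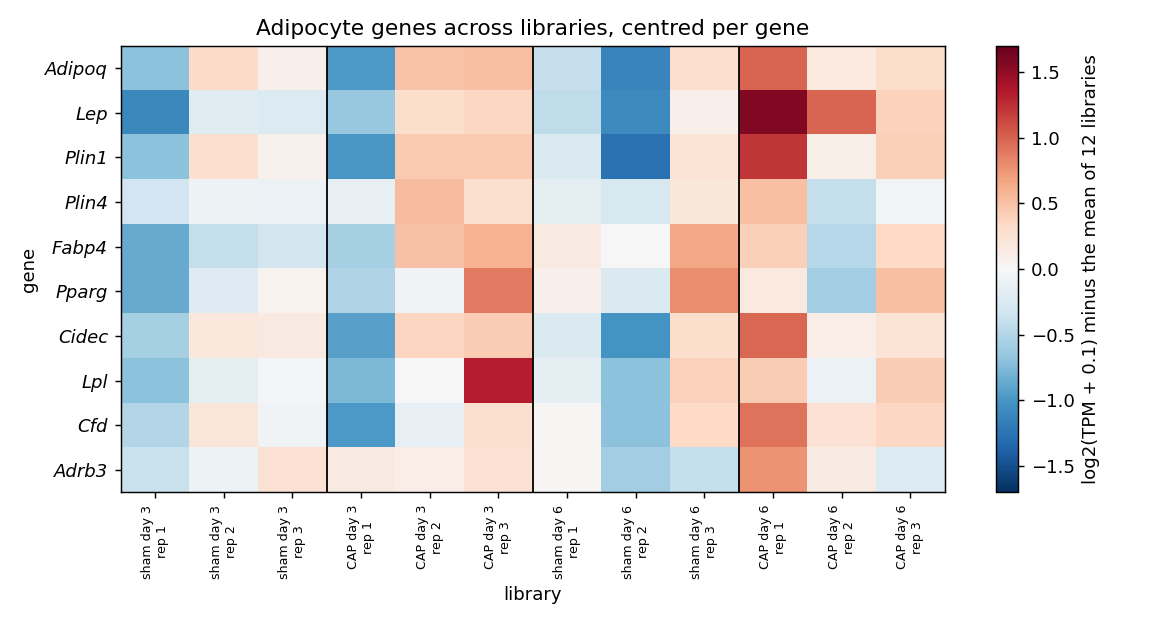
Each row is a gene and each column a library, and colour gives log2(TPM + 0.1) minus the mean of that gene over the 12 libraries. The columns of day 3 sham replicate 1, day 3 CAP replicate 1 and day 6 sham replicate 2 are blue for most genes, and the column of day 6 CAP replicate 1 is red for all 10.

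The first question was whether CAP changed the fat cell genes by day 3. None of the 10 genes passed the threshold of the study, an unadjusted p under 0.05 with at least a 2-fold difference, against 1.58% of the 18330 genes tested (0.426% higher and 1.16% lower), and 0 of the 10 had an unadjusted p under 0.05, against 6.6%. The differences ran from -0.16 for Cfd to 0.70 for Fabp4 on the log2(TPM + 0.1) scale, with 9 positive and 1 negative. Their median was 0.32, beside -0.05 over all genes tested. None of the 10 separated the CAP from the sham libraries, against 2.86% of all genes tested that did so upward and 8.75% downward. Adjusted p ranged from 0.79 to 0.996 (limma with Benjamini-Hochberg adjustment), and 0.0164% of all genes tested had one under 0.05.

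Fabp4 had the largest of these differences. It stood at 130, 177 and 190 TPM in sham wounds and at 159, 331 and 353 TPM in CAP wounds of day 3. Both higher CAP libraries lay above all sham libraries, but replicate 1 did not. The log2 difference of 0.70 ± 0.32 (SE) had an unadjusted p of 0.0656 and an exact permutation p of 0.3, and without the low CAP replicate 1 it was 1.07 and passed the threshold.

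The adipokines differed little on day 3. Lep was measured at 0.711, 1.40 and 1.37 TPM in sham and at 1.003, 2.02 and 2.096 TPM in CAP wounds, a log2 difference of 0.51 ± 0.39 (SE). Cfd was measured at 171, 278 and 231 TPM in sham and at 123, 218 and 293 TPM in CAP wounds, a log2 difference of -0.16 ± 0.33 (SE). Adipoq, Plin1 and Cidec differed by 0.10, 0.08 and 0.03, and their SEs were 0.45, 0.44 and 0.39. With errors of this size, changes of less than about 2-fold were not detectable in these genes.

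Lpl and Pparg rested on a single library on day 3. Lpl was measured at 54.5, 79.1 and 87.4 TPM in sham wounds and at 52.1, 89.0 and 224 TPM in CAP wounds. Pparg was measured at 6.71, 10.4 and 12.8 TPM in sham wounds and at 8.53, 11.7 and 22.5 TPM in CAP wounds. In both genes replicate 3 of the CAP group was the highest of all 12 libraries, and without it the log2 differences went from 0.49 to -0.09 for Lpl and from 0.44 to 0.05 for Pparg. That library also held the highest summed level of 7 macrophage markers (Cd68, Adgre1, Csf1r, Lyz2, Cd14, Mrc1 and Itgam), 10358 TPM, beside 4701 and 6620 TPM in the other two CAP wounds of day 3 and 3939 to 5696 TPM in the sham wounds of that day. Lyz2 alone held 7576 TPM of the 10358 TPM. Cd68, Adgre1 and Itgam were also highest in that library, but Csf1r (168 TPM) and Mrc1 (191 TPM) lay below day 3 sham replicate 1 (212 and 211 TPM). Of the 7 markers 0 passed the threshold on day 3, and the part of macrophages in the Lpl and Pparg levels was not tested.

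The second question was whether the fat cell genes differed on day 6. Only Lep passed the threshold, 1 of 10 genes, against 1.46% of the 18323 genes tested that passed it upward and 2.34% that passed it downward (3.8% in either direction). The count over all genes, 697, was 311 without replicate 2 and 1483 without replicate 3 of the day 6 CAP group. Lep stood at 1.18, 0.714 and 1.73 TPM in sham wounds and at 5.03, 3.34 and 2.16 TPM in CAP wounds. All 3 CAP libraries lay above all 3 sham libraries, as did 8.01% of all genes tested (18% lay below), with means of 1.21 ± 0.510 and 3.51 ± 1.44 TPM (SD, n = 3). The log2 difference was 1.46 ± 0.41 (SE), with an unadjusted p of 0.00939 and an adjusted p of 0.209 (limma), and the exact permutation test gave 0.1, the smallest p that 3 against 3 libraries allow. No gene of the 18323 reached an adjusted p under 0.05 with limma, although 19.2% had an unadjusted p under 0.05.

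The Lep difference held in each alternative that was run. Leaving out 1 library at a time gave log2 differences from 1.16 (without sham replicate 2) to 1.76 (without CAP replicate 3), each past the threshold.

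Adipoq and Plin1 lay next to the threshold on day 6 without passing it. Adipoq differed by 0.90 ± 0.38 (SE) with an unadjusted p of 0.0482 and an exact permutation p of 0.2, and Plin1 differed by 0.997 ± 0.43 (SE) with an unadjusted p of 0.0536 and an exact permutation p of 0.2. In both genes 2 of the 3 CAP libraries lay above all sham libraries and 1 did not. Day 6 was also the comparison in which the median over all genes was furthest from 0, at -0.12. Relative to that median the differences were 1.02 for Adipoq, 1.12 for Plin1 and 1.58 for Lep, and with the libraries rescaled by quantile normalization or by median ratios all 3 genes passed the threshold.

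Single libraries set how many genes passed. Without replicate 3 of the day 6 sham group, the highest of that group for Adipoq, Lep, Plin1 and Cidec, these 4 genes passed the threshold, with 1.25 for Adipoq, 1.33 for Plin1 and 1.07 for Cidec. Without replicate 2 of the day 6 CAP group Lep still passed it, and so did Adipoq (1.06) and Plin1 (1.24). Without replicate 2 of the day 6 sham group the differences of Adipoq and Plin1 were 0.54 and 0.57.

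The other 7 genes ran from positive to slightly negative differences on day 6. Cidec differed by 0.76 ± 0.36 (SE). Cfd stood at 246, 149 and 306 TPM in sham and at 458, 285 and 309 TPM in CAP wounds, a log2 difference of 0.62 ± 0.29 (SE). Adrb3, Lpl and Plin4 differed by 0.54, 0.41 and 0.11, and their SEs were 0.30, 0.28 and 0.25. For Cfd, Adrb3 and Lpl 2 of 3 CAP libraries lay above all sham libraries.

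Fabp4 and Pparg did not share the positive values of the droplet genes. Fabp4 stood at 262, 236 and 371 TPM in sham and at 313, 168 and 297 TPM in CAP wounds, a log2 difference of -0.19 ± 0.28 (SE). Pparg stood at 12.9, 10.3 and 21.1 TPM in sham and at 13.7, 8.09 and 17.4 TPM in CAP wounds, a log2 difference of -0.18 ± 0.35 (SE). For both genes the ranges of the groups overlapped, and without replicate 2 of the CAP group, the lowest library of that group, the differences were 0.10 and 0.13. The median over the 10 genes was 0.58, with 8 positive and 2 negative.

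Other cell types moved between the same day 6 groups. All 7 keratinocyte markers differed upward in CAP wounds and 4 passed the threshold (Krt1, Lor, Krt10 and Ivl). Their summed level was 46680 to 98460 TPM against 26796 to 30492 TPM in sham wounds. All 7 endothelial markers differed downward and 3 passed the threshold (Pecam1, Cdh5 and Emcn), with a sum of 76.0 to 207 TPM against 251 to 341 TPM. All 7 macrophage markers differed downward and 1 passed the threshold (Itgam), with a sum of 4114 to 9314 TPM against 7083 to 10049 TPM. All 13 skeletal muscle markers differed downward and 1 passed the threshold (Myh4), with a sum of 2684 to 3821 TPM against 3609 to 5185 TPM. Of all 18323 genes tested 6279 differed upward and 12044 downward, and 1.46% passed the threshold upward and 2.34% downward. No marker of these lists was at 0 in all libraries of a group. The part of these shifts in the differences of the fat cell genes was not tested.

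**Figure D3:**
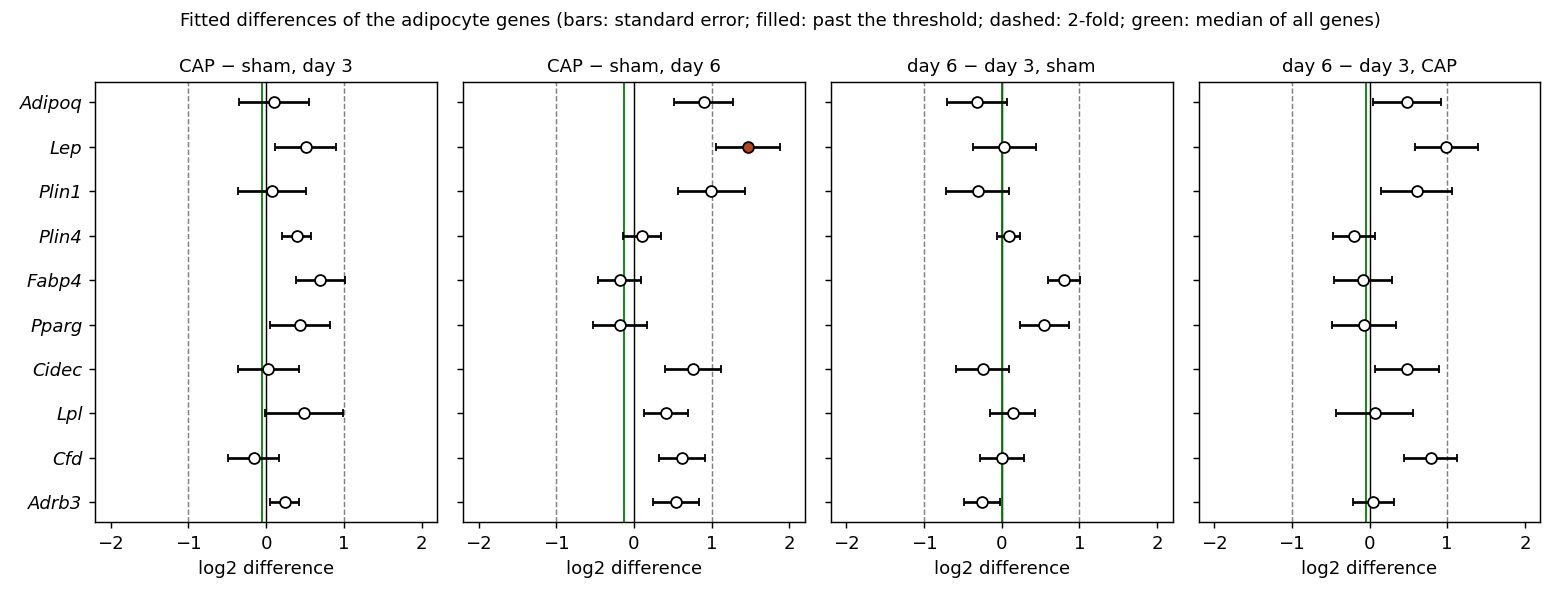
The fitted log2 difference of each of the 10 genes is plotted with its standard error for the 4 comparisons of 2 groups, with dashed lines at 2-fold and a green line at the median of all genes tested. Lep on day 6 (1.46) is the one filled symbol, and Adipoq (0.90) and Plin1 (0.997) lie at or just inside the dashed line beside it.

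**Figure D4:**
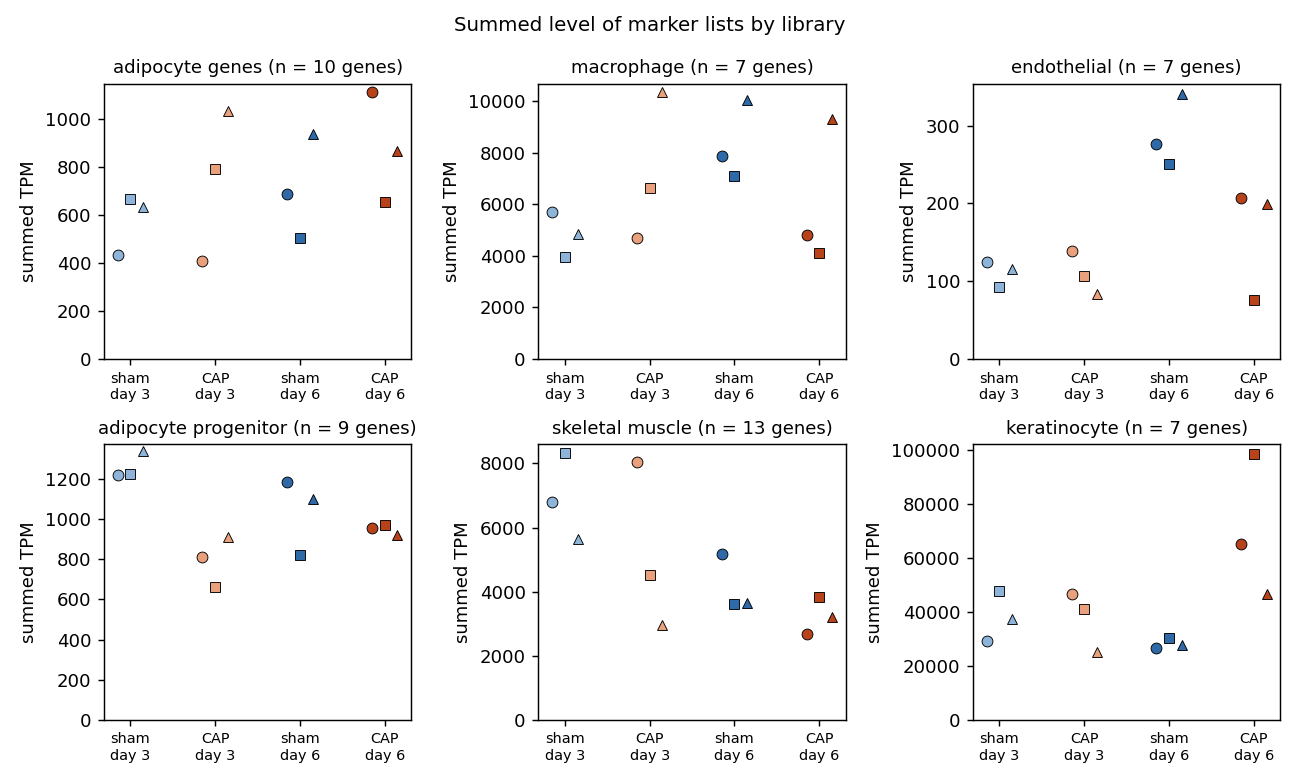
The summed TPM of the 10 fat cell genes and of 5 marker lists is plotted for each library (vertical axis starting at 0, circle, square and triangle for replicates 1, 2 and 3). The fat cell sums of the 4 groups overlap, at 433 to 665, 406 to 1033, 505 to 939 and 655 to 1112 TPM, whereas the endothelial sums of the day 6 sham wounds, 251 to 341 TPM, lie above those of the other 3 groups.

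Between day 3 and day 6 of sham treatment, none of the 10 genes passed the threshold, against 3.75% of the 18368 genes tested (2.13% higher and 1.61% lower on day 6). Fabp4 came closest, with all 3 libraries of day 6 (236 to 371 TPM) above all 3 of day 3 (130 to 190 TPM), as were 10.8% of all genes tested (10.6% lay below). Its log2 difference was 0.80 ± 0.21 (SE), 1.74-fold on the scale fitted, with an unadjusted p of 0.00571, an adjusted p of 0.11 (limma) and an exact permutation p of 0.1. An adjusted p under 0.05 was reached by 2.29% of all genes tested and by none of the 10. Pparg differed by 0.55 ± 0.32 (SE). Adipoq, Plin1 and Cidec differed by -0.32, -0.31 and -0.25, and without replicate 2 of the day 6 sham group by 0.04, 0.11 and 0.10. The median over the 10 genes was 0.02, and that over all genes was 0.00. The endothelial markers moved with Fabp4: all 7 differences were positive and 5 passed the threshold (Cldn5, Cdh5, Tie1, Pecam1 and Emcn). Their sum was 92.5 to 125 TPM on day 3 and 251 to 341 TPM on day 6. The summed macrophage markers lay higher on day 6 in all 3 libraries as well, at 3939 to 5696 TPM on day 3 and 7083 to 10049 TPM on day 6, with 6 of 7 differences positive (0.99 for Lyz2) and 0 past the threshold. The part of both cell types in the Fabp4 difference was not tested.

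Under CAP treatment, none of the 10 genes passed the threshold between day 3 and day 6 either, against 2.79% of the 18202 genes tested (1.27% higher and 1.52% lower). Lep lay just inside 2-fold. Its lowest day 6 library (2.163 TPM) lay above its highest day 3 library (2.096 TPM), and 8.05% of all genes tested separated the days upward and 9.63% downward. The log2 difference was 0.99 ± 0.40 (SE), with an unadjusted p of 0.0452, an adjusted p of 0.424 (limma) and an exact permutation p of 0.1. Of all genes tested 0.00549% reached an adjusted p under 0.05. With quantile normalization or median-ratio scaling it was 1.02 and passed the threshold, and it passed too without replicate 3 of day 3 (1.16) or without replicate 3 of day 6 (1.29). Cfd differed by 0.79 ± 0.34 (SE), and without replicate 3 of day 3 it differed by 1.07 and passed the threshold. The median over the 10 genes was 0.27, beside -0.05 over all genes.

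Whether the CAP effect itself differed between the days was tested with the interaction of treatment and day. None of the 10 genes passed the threshold, against 4.9% of the 20267 genes tested (2.18% higher and 2.73% lower). The lowest unadjusted p was that of Fabp4, 0.0841, with a log2 difference of -0.88 ± 0.47 (SE) between the 2 effects. For Lep the effect of day 6 exceeded that of day 3 by 0.96 ± 0.60 (SE) with an unadjusted p of 0.138, so a larger effect on day 6 was not shown. Without replicate 1 of the day 3 CAP group Fabp4 passed the threshold at -1.25, and without replicate 3 of that group Cfd passed it at 1.06.

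Because Adipoq, Plin1 and Cidec moved together, each gene was also expressed relative to Adipoq in the same library, a measure chosen after the values were seen. The level of Plin1 was 0.744 to 0.960 times that of Adipoq in the 12 libraries, and that of Cidec was 1.38 to 1.68 times. The SD of both log2 ratios was 0.10, beside 0.651 for Adipoq itself. The 3 genes therefore kept nearly constant proportions while their levels changed over about 4-fold to 6-fold. The other ratios varied more, with SDs from 0.29 for Cfd to 0.57 for Pparg.

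The ratio of Lep to Adipoq was higher in CAP than in sham wounds on both days. On day 3 it was 0.0451 to 0.0520 in sham and 0.0580 to 0.0800 in CAP wounds, and on day 6 it was 0.0572 to 0.0633 in sham and 0.0704 to 0.120 in CAP wounds. The 2 groups did not overlap on either day, and it also separated the days in sham wounds. The exact permutation p was 0.1 each time, the smallest possible, and 0.3 after adjustment over the 36 ratio comparisons.

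The ratio of Fabp4 to Adipoq moved in opposite directions on the 2 days. It was 5.71 to 8.47 in sham and 9.54 to 12.7 in CAP wounds on day 3, and 12.3 to 20.9 in sham and 6.05 to 9.66 in CAP wounds on day 6. The ratio of Pparg to Adipoq overlapped between the groups on day 3 and was 0.685 to 0.913 in sham and 0.278 to 0.565 in CAP wounds on day 6. The ratios of Plin4 and Cidec to Adipoq also lay lower in all CAP libraries of day 6, with log2 differences of -0.79 and -0.14. The ratio to Adipoq lay lower in all CAP libraries of day 6 for 40.3% of all genes tested, so a lower ratio on that day is not particular to these 4 genes. On day 3 the ratio lay higher in all CAP libraries for 0.415% of genes, and on day 6 for 0.0873%. These shares depend on the spread and level of Adipoq, and for TPM itself they were 2.86% and 8.01%. Between the days, the ratios of Fabp4, Pparg and Lpl were also higher in all day 6 libraries of sham wounds (log2 differences of 1.12, 0.87 and 0.46), as were those of 3.1% of genes, and that of Plin4 was lower in CAP wounds (-0.68), as were those of 5.81% of genes. In all, 12 of the 36 ratio comparisons separated the groups, 7 upward and 5 downward, and all 36 share Adipoq as the denominator. For each of these separations the exact permutation p was 0.1 and 0.3 after adjustment. Leaving out 1 library cannot turn a direction where the groups do not overlap, so it was no test of these separations. Endothelial and macrophage sums moved as given above, and their part in the Fabp4 and Pparg ratios was not tested.

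**Figure D5:**
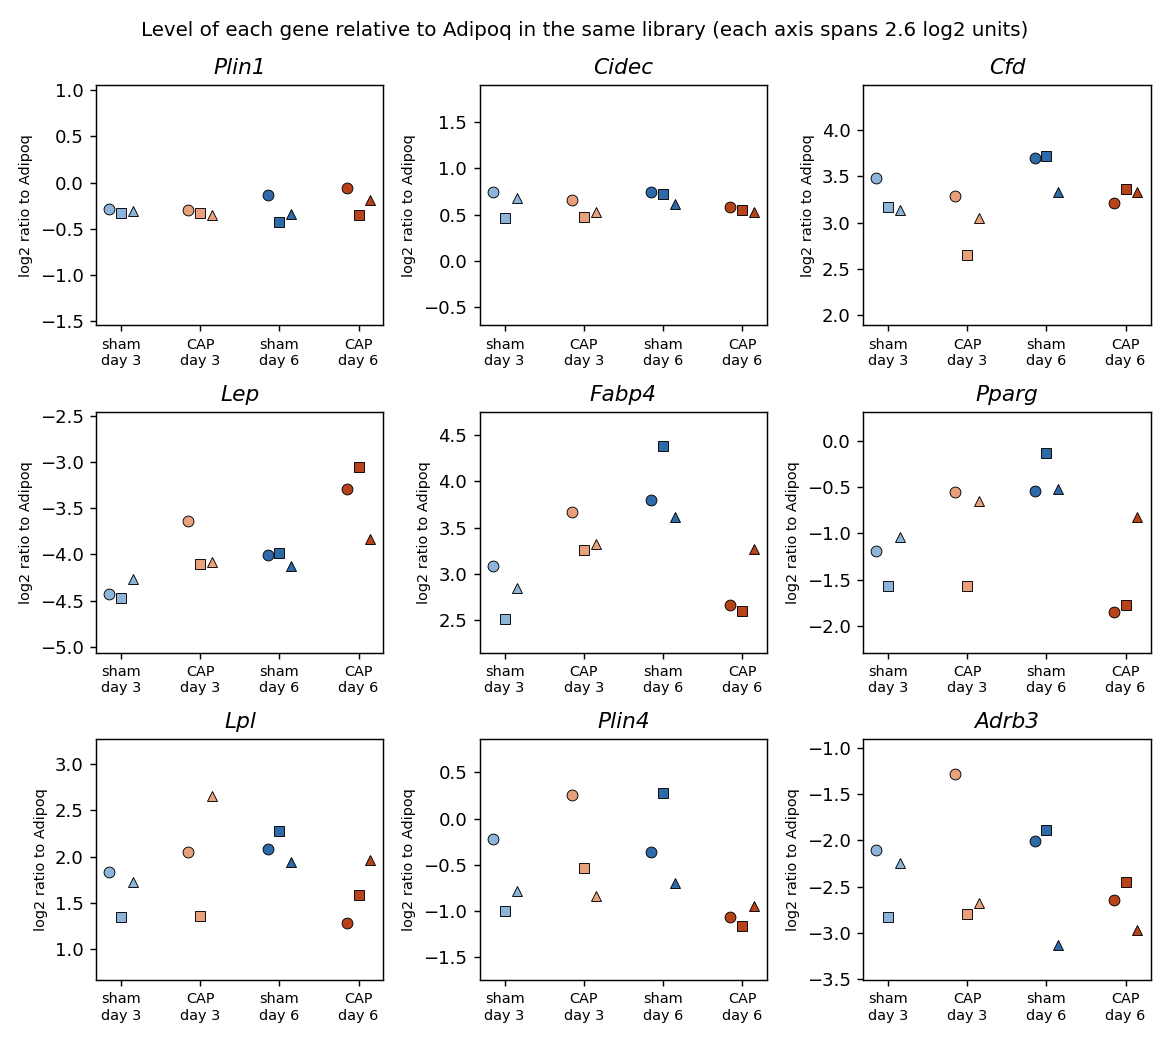
The log2 ratio of each gene to Adipoq in the same library is plotted for the 3 libraries of each group, and each vertical axis spans the same range in log2 units. Plin1 and Cidec form flat bands (SD 0.10), Lep is higher in CAP than in sham wounds on both days, and Fabp4 is higher in CAP wounds on day 3 and lower on day 6.

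Genes that work with these 10 in fat metabolism were read from lists chosen by function, with earlier results of these data known. Of 16 genes of triglyceride and fatty acid synthesis, among them Fasn, Acly, Scd1 and Dgat2, 0 passed the threshold in any of the 5 comparisons. On day 6, however, 7 of the 16 had an unadjusted p under 0.05 between CAP and sham wounds, against 19.2% of all genes tested, and the median log2 difference was 0.37 beside -0.12 over all genes. The summed level of the 16 genes was 933 to 1041 TPM in CAP and 720 to 754 TPM in sham wounds of day 6. The 7 were Me1 (0.72), Dgat2 (0.72), Gpam (0.50), Elovl6 (0.61), Thrsp (0.98) and Fasn (0.36), with positive log2 differences below 2-fold, and Dgat1 (-0.51). They are named here after their values were seen. These enzymes are also known from sebaceous gland and epidermis. Of 7 sebaceous markers 5 were tested on day 6, 4 of them differed upward and 1 downward (median 0.13), and 0 passed the threshold. Their sums were 98.0 to 179 TPM in CAP and 128 to 175 TPM in sham wounds. Krt79 held most of these sums, with group means of 101 TPM in CAP and 100 TPM in sham wounds. The keratinocyte markers moved with the synthesis genes on day 6: all 7 differences were positive, 4 passed the threshold (Krt1, Krt10, Lor and Ivl), and their sum was 46680 to 98460 TPM in CAP and 26796 to 30492 TPM in sham wounds. The part of keratinocytes and of the sebaceous gland was not tested. Of 13 adipogenic transcription factors, among them Cebpa, Cebpb and Srebf1, 0 passed the threshold in any comparison, with medians between -0.07 and 0.18.

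Among 14 genes of the lipid droplet and of lipolysis, Plin2 changed the most between the day 3 groups. Plin2, a droplet protein found in many cell types that store lipid, rose with CAP on day 3 by 1.18 ± 0.47 (SE) on the log2 scale, from a mean of 289 ± 48.4 to 754 ± 439 TPM (SD, n = 3). The unadjusted p was 0.0399 and the adjusted p 0.734 (limma), and 0.426% of all genes tested passed the threshold upward on day 3. Plin2 fell from day 3 to day 6 under CAP by 1.55 (adjusted p = 0.422, limma), and was not past the threshold between CAP and sham on day 6 (-0.94). Cidea, which like Cidec promotes droplet growth, fell from day 3 to day 6 in both treatments, by 1.56 in sham wounds (adjusted p = 0.0361, limma) and by 1.54 in CAP wounds. G0s2, an inhibitor of the lipase that starts lipolysis, rose by 1.23 in sham wounds over the same time. The list medians were between -0.13 and 0.10 in the 5 comparisons.

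Among 10 genes of fuel uptake, Cd36, Gpihbp1 and Angptl4 passed the threshold in at least 1 comparison. Of all genes tested, 1.58% to 4.9% passed it in any single comparison. Cd36, a fatty acid transporter also present on macrophages and endothelium, rose with CAP on day 3 by 1.23 ± 0.42 (SE), from 89.2 ± 11.6 to 237 ± 144 TPM, and fell from day 3 to day 6 under CAP by 1.51. For the rise the unadjusted p was 0.023 and the adjusted p 0.692, and for the fall the adjusted p was 0.346 (limma). Both Plin2 and Cd36 were highest in replicate 3 of the day 3 CAP group. That library had the highest macrophage sum, made up mostly of Lyz2. Without it the CAP differences of Plin2 and Cd36 were 0.76 and 0.77 and no longer past the threshold. Without replicate 1 of the day 3 sham group (1.15 for Plin2 and 1.12 for Cd36) or replicate 2 of the day 3 CAP group (1.05 and 1.23) both calls were lost as well, and the Plin2 call also without sham replicate 2 (1.09) or 3 (1.31). The fall of Cd36 under CAP was lost without replicate 2 of day 6 (-1.34), and that of Plin2 without replicate 2 or 3 of day 3 or replicate 1 or 2 of day 6 (-1.12 to -1.41). With no filter on low values neither Plin2 call held (unadjusted p = 0.0552 on day 3 and 0.0591 for the fall, limma), and with quantile normalization the fall did not either (0.0536). The part of macrophages was not tested.

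Gpihbp1, which anchors lipoprotein lipase on the capillary wall, rose from day 3 to day 6 in sham wounds by 1.91 ± 0.19 (SE, adjusted p = 0.0132, limma), from 6.31 ± 1.51 to 23.5 ± 1.42 TPM. On day 6 it was lower in CAP wounds by 1.29 on the log2 scale, at 11.2 ± 6.43 TPM, and so was Angptl4, an inhibitor of lipoprotein lipase, with a difference of -1.38. The unadjusted p was 0.0306 for Gpihbp1 and 0.0163 for Angptl4, and the adjusted p was 0.234 and 0.217 (limma). Of all genes tested, 2.34% passed the threshold downward on day 6. Without replicate 2 of the day 6 CAP group, which also had the lowest endothelial sum (76.0 TPM), the 2 differences were -0.68 and -0.88 and neither passed the threshold. Without replicate 1 of the day 6 sham group both calls were lost too (-1.34 and -1.28), and that of Gpihbp1 also without sham replicate 2 (-1.27) or 3 (-1.26). The part of endothelial cells was not tested.

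Of 12 other fat cell products and surface proteins, only Apln, which encodes apelin and is also made by endothelial cells, passed the threshold. It rose from day 3 to day 6 in sham wounds by 1.30 and was lower in CAP than in sham wounds on day 6 by 2.13 on the log2 scale. The unadjusted p was 0.0156 and 0.026 in that order, and neither adjusted p was under 0.05 (limma). Of all genes tested, 2.13% passed the threshold upward in the first comparison and 2.34% downward in the second. The first call was lost without replicate 2 (0.99) or 3 (1.07) of day 3 and in a joint fit of 12 libraries, and the second without any single day 6 sham library (-2.10 to -2.16). Without replicate 2 of the day 6 CAP group, the library with the lowest endothelial sum, the second difference was -1.16 and still past the threshold. Of 8 genes of thermogenic fat, 7 of them tested, Cidea fell as described. Elovl3, a fatty acid elongase, rose from day 3 to day 6 in CAP wounds by 1.18, from 0.508 to 1.25 TPM by group mean. That call was lost with a replicate block, with a pseudocount of 1 TPM, with a joint fit of 12 libraries and without replicate 1 (0.93) or 2 (1.09) of day 3 or replicate 1 of day 6 (0.90). Over the same days 3 of 4 tested sebaceous markers differed upward and 1 downward, and Scd3 passed the threshold. The part of the sebaceous gland was not tested.

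Among 9 markers of adipocyte progenitors, Dlk1, known as preadipocyte factor 1, rose from day 3 to day 6 by 2.35 in sham wounds (adjusted p = 0.0455, limma) and by 1.67 in CAP wounds. Pdgfrb rose by 1.07 in sham wounds, from 28.4 ± 6.17 to 59.2 ± 6.25 TPM, and Pi16, a marker of early fascial progenitors, rose by 1.24 in CAP wounds (adjusted p = 0.27, limma). Of the 9 differences in sham wounds 5 were positive and 4 negative, the latter Ly6a (-0.80, adjusted p = 0.0227, limma), Dpp4 (-0.69), Cd34 (-0.53) and Zfp423 (-0.14), none of them at 2-fold. The Pdgfrb difference was 0.95 without replicate 2 of day 3 and fell just short of 2-fold without replicate 3 of day 6. Icam1, found on committed preadipocytes and on inflamed endothelium, was lower in CAP wounds on day 6 by 1.08 (unadjusted p = 0.00141, adjusted p = 0.205, limma). This call was lost without replicate 2 of the CAP group (-0.84), with quantile normalization (-0.99) and with median-ratio scaling (-0.96). The median of this list was -0.48 between CAP and sham on day 3, with 8 of 9 differences negative and 0 past the threshold, beside a median of -0.05 over all genes, of which 11395 of 18330 differed in the negative direction. Ly6a, Dpp4, Pi16 and Cd34, 4 of the 9, reached an unadjusted p under 0.05, against 6.6% of all genes tested. The summed level of the list was 663 to 910 TPM in CAP and 1219 to 1340 TPM in sham wounds. Ly6a, Cd34 and Pi16 held most of that sum, with means of 525, 310 and 238 TPM in sham wounds of day 3. Pdgfra (-0.05), Pdgfrb (-0.03), Icam1 (-0.01) and Dlk1 (0.06) differed little. The part of other cell types in these levels was not tested.

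Across the 12 libraries, the genes whose profile was most like the mean standardized profile of the 10 were A530016L24Rik (Pearson r = 0.945), Ephx2 (0.934), Pck1 (0.934), Smoc1 (0.926), Fam13a (0.912), Retn (0.910), Cdo1 (0.900), Ech1 (0.877), Hsd17b4 (0.866) and Fbxo8 (0.864), out of 16159 genes compared. The 12 points share tissue composition and the TPM scale, so these values describe likeness over these libraries. Among the 10 genes themselves, the correlation with the mean of the other members ran from 0.531 for Adrb3 to 0.946 for Cidec, with Adipoq at 0.938, Plin1 at 0.941, Lep at 0.820, Fabp4 at 0.686 and Pparg at 0.658.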

How the data were processed

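RNA from 12 wound libraries was analysed, 3 per treatment and day. The authors deposited 1 table per library with gene TPM, made with StringTie per the study's methods. The submitters' processing notes name bcl2fastq, Trimmomatic 0.36 and the mm10 build, and the aligner, annotation release and strand setting were not given in the sources used here. TPM keeps no read depth, so no counting error could be given, and 18533 to 19325 genes reached 0.3 TPM per library. The 10 members and the gene lists were chosen with earlier results of these data known.

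Genes whose mean reached 0.3 TPM in each group compared (for the interaction, in 1 group or more) were tested with limma 3.58.1 (R 4.3.3, intensity trend) on log2(TPM + 0.1), which understates the change of low genes, with Benjamini-Hochberg adjustment over all genes tested. The threshold was the study's, an unadjusted p under 0.05 and at least 2-fold. Exact permutation tests over libraries were two-sided. Named genes were the 10 members, list genes past the threshold and the 10 genes with the most similar profile (mean of at least 1 TPM). Alternatives covered the pseudocount, filter, scaling, joint fit, replicate block and leaving out each library. The fit was tested on simulated data. Gene coordinates of all 10 members were the same in GENCODE M21. Plin4, Pparg and Adrb3 overlap a gene on the other strand (Hdgfl2, Gm44079 and Gm45470), so their reads could be shared if counting ignored strand. Between 0% and 3.24% (Lpl) of a member's 31-base words occur in other genes.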

Additional observations from a re-analysis of the deposited data

Results flagged for a closer look

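For 7 list genes, none of them among the 10 fat cell genes, the CAP effect differed between day 6 and day 3 by the interaction test at an unadjusted p under 0.05 and at least 2-fold. Each had an adjusted p of 0.428 (limma), and 4.9% of the 20267 genes tested passed the same threshold.

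Plin2 had a CAP effect of 1.18 on day 3 and -0.94 on day 6, a difference of -2.12 ± 0.72 (SE, unadjusted p = 0.013). Plin5, which couples droplets to mitochondria, had effects of 0.55 and -0.58, a difference of -1.12 ± 0.45 (SE, unadjusted p = 0.0294), at levels of 0.325 to 0.612 TPM by group mean. Cd36 had effects of 1.23 and -0.17, a difference of -1.40 ± 0.53 (SE, unadjusted p = 0.0236). Gpihbp1 had effects of 0.14 and -1.29, a difference of -1.43 ± 0.59 (SE, unadjusted p = 0.0351). Icam1 had effects of -0.01 and -1.08, a difference of -1.07 ± 0.27 (SE, unadjusted p = 0.00224).

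Both progenitor markers that differed upward are known from early fascial progenitors. Dpp4 had effects of -0.71 and 0.71, a difference of 1.42 ± 0.28 (SE, unadjusted p = 0.000335), with group means of 43.1 and 26.6 TPM in sham and CAP wounds of day 3 and of 27.1 and 44.2 TPM in those of day 6. Pi16 had effects of -0.95 and 0.10, a difference of 1.05 ± 0.40 (SE, unadjusted p = 0.022).

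With 1 library left out, the differences of Plin2 (-2.69 to -1.7) and Dpp4 (1.24 to 1.57) stayed past the threshold each time. Those of Cd36 (-1.85 to -0.94), Gpihbp1 (-1.82 to -0.82), Icam1 (-1.25 to -0.83), Pi16 (0.77 to 1.29) and Plin5 (-1.37 to about 2-fold) kept their direction, and each fell short of the threshold without at least 1 library. That of Plin5 was -0.41 with a pseudocount of 1 TPM, under 2-fold, and the gene was not tested with 0.3 TPM required in every library. The smallest differences of Cd36 and of Gpihbp1 and Icam1 came without replicate 3 of the day 3 CAP group and without replicate 2 of the day 6 CAP group, respectively.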

How the results depend on the processing

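The number of the 10 genes past the threshold was 1 between CAP and sham on day 6 and 0 in the other 4 comparisons. With quantile normalization or median-ratio scaling it was 3 on day 6 and 1 between the days in CAP wounds, and no other setting of the pseudocount, filter, scaling or joint fit moved a count. Leaving out 1 library gave 0 to 1 genes between CAP and sham on day 3, 1 to 4 on day 6, 0 to 2 between the days in CAP wounds, 0 between the days in sham wounds and 0 to 1 for the difference of the CAP effect. Several directions turned with 1 library left out, and the cause was not tested. Between CAP and sham on day 3, leaving out 1 library gave log2 differences for Adipoq from -0.20 to 0.59, Cfd from -0.44 to 0.18, Cidec from -0.21 to 0.47, Lpl from -0.09 to 0.96 and Plin1 from -0.21 to 0.56. Between CAP and sham on day 6, leaving out 1 library gave log2 differences for Fabp4 from -0.35 to 0.10, Plin4 from -0.14 to 0.32 and Pparg from -0.42 to 0.13. Between the days in sham wounds, leaving out 1 library gave log2 differences for Adipoq from -0.66 to 0.04, Cfd from -0.22 to 0.30, Cidec from -0.56 to 0.10, Lep from -0.26 to 0.34, Lpl from -0.13 to 0.42, Plin1 from -0.64 to 0.11 and Plin4 from -0.05 to 0.18. Between the days in CAP wounds, leaving out 1 library gave log2 differences for Adipoq from -0.01 to 0.73, Adrb3 from -0.22 to 0.27, Fabp4 from -0.45 to 0.20, Lpl from -0.41 to 0.64, Plin4 from -0.44 to 0.01 and Pparg from -0.38 to 0.32. For the difference of the CAP effect between days, leaving out 1 library gave log2 differences for Lpl from -0.56 to 0.49. With quantile normalization the Pparg difference between the days in CAP wounds was 0.01. Correlations of deviations ran from -0.14 to 0.26 for libraries of the same replicate number and from -0.23 to 0.21 for different numbers. They showed no clear pairing, but with 3 libraries per group they cannot exclude it. A replicate block moved none of the counts, which stayed at 1 on day 6 between CAP and sham and 0 elsewhere. Effects under 2-fold could not be resolved for genes with standard errors near 0.4, and TPM gives no depth to say how precise low values such as those of Lep are.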
